A study of Mus musculus with 7 samples.

Results

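The 10 genes examined were markers of the inhibitory interneurons of the forebrain, namely Gad1, Gad2, Slc32a1, Sst, Vip, Npy, Cck, Pvalb, Reln and Lhx6. They were taken by symbol from the 55416 gene identifiers counted in mouse hippocampus, and all 10 had an identifier. All 10 were also among the 13152 genes with enough counts to be tested. Total RNA of hippocampal tissue came from age-matched male mice of the outbred CD1 stock in 3 groups. Control mice (3 libraries, replicates 1 to 3) were untreated. DMSO-treated mice (2 libraries, replicates 2 and 3) received the vehicle by intraperitoneal injection. ONX-0914-treated mice (2 libraries, replicates 1 and 2) received this inhibitor of the immunoproteasome intraperitoneally in doses of 10 mg/kg, given 2 times a week for 2 months. Control mice had no injection, so the comparison of DMSO with control includes the injections, and the inhibitor acted on the whole animal. The methods give more mice per group than libraries and do not say which animals were sequenced or whether RNA was pooled. With 2 libraries in each treated group, p-values measure only the spread between these libraries.

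Interneurons release GABA and restrain the firing of the pyramidal and granule cells, which are the principal cells of the hippocampus. Glutamate decarboxylase, encoded by Gad1 and Gad2, makes GABA from glutamate, and the transporter encoded by Slc32a1 loads it into vesicles. Interneuron classes are told apart by neuropeptides (Sst, Vip, Npy, Cck), by the calcium buffer parvalbumin (Pvalb), by the secreted glycoprotein reelin (Reln) and by the transcription factor Lhx6, which marks cells born in the medial ganglionic eminence. Several of these genes are not limited to interneurons. Cck is also made by pyramidal cells, reelin by Cajal-Retzius cells, and the GABA genes by the projection neurons of the striatum and by neurons of the thalamic reticular nucleus, where parvalbumin is made as well. In bulk tissue, fewer cells of a type and less RNA per cell cannot be told apart.

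The total count on genes lay between 2842675 and 3877006 in 6 libraries and was 13782270 in ONX-0914 replicate 2. The 2 ONX-0914 libraries stood apart from the rest and from each other. A chi-square per degree of freedom, over the genes with enough counts in each pair of libraries, was 2.63 to 3.40 within the control and DMSO groups. It was 84.9 between the ONX-0914 libraries. Its size also depends on the total counts, which were highest in ONX-0914 replicate 2. ONX-0914 replicate 1 went against the labelled tissue. A list of 13 markers of hippocampal pyramidal and granule cells summed to 332.7 CPM (reads relative to the library total, scaled by TMM) there, against 991 to 1031 in the control libraries, and 12 of the 13 genes lay below every control library. The 14 markers of striatum summed to 1451 CPM against 246 to 280 in control, and the 14 markers of thalamus and midbrain to 1363 CPM against 161 to 178. All 14 genes of each list lay above every control library, and Six3 is on both lists. The lists were chosen with earlier results of these data known, so they are not independent of these libraries. ONX-0914 replicate 2 had 3.712% of its counts on mitochondrially encoded genes, against 0.818% to 1.588% in the other 6 libraries. Its 10 markers of neurons summed to 7623 CPM against 11967 to 12999 in control, with all 10 below every control library, while its hippocampal list summed to 1028 CPM, a sum within the control range in which 7 of the 13 genes lay above every control library and 6 below. The share of all genes above or below every control library in a single library was not counted, so these gene counts have no background here. Because the 2 ONX-0914 libraries differed, every value of that group is given below for each library.

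The promoter sequences of the neuropeptide genes are shown because these 4 genes were high together in 1 of the 2 ONX-0914 libraries, and because Sst and Vip are textbook targets of the factor CREB. Each is the stretch of 250 bases before the annotated start, 5′ to 3′ on the gene's strand, from RefSeq on build GRCm38.p6, whereas the reads were counted on GRCm39. Capitals mark the core of the cyclic AMP response element, TGACG or its reverse complement CGTCA, searched on both strands. Gad2 is shown as the other member that held it.
Sst (chr16:23890845-23891094, minus strand): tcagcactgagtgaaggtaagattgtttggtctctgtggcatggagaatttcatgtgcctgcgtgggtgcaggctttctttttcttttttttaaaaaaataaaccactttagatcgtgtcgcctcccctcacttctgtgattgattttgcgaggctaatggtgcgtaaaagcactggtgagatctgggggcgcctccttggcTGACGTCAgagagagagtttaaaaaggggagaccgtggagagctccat
Vip (chr10:5638968-5639217, plus strand): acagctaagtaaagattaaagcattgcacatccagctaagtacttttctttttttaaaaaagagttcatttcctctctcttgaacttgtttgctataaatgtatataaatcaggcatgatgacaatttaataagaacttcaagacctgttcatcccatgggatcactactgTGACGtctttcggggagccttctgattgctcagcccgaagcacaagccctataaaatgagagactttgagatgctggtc
Cck (chr9:121495695-121495944, minus strand): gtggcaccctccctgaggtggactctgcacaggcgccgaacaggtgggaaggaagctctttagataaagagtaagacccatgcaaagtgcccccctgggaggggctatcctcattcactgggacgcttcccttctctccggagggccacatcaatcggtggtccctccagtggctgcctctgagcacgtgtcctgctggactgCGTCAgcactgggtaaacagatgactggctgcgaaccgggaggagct
Npy (chr6:49822460-49822709, plus strand): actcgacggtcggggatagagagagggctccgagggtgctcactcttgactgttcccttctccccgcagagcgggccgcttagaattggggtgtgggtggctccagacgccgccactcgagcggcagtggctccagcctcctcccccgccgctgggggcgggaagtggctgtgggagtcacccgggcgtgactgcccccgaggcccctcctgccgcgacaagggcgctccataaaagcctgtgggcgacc
Gad2 (chr2:22622077-22622326, plus strand): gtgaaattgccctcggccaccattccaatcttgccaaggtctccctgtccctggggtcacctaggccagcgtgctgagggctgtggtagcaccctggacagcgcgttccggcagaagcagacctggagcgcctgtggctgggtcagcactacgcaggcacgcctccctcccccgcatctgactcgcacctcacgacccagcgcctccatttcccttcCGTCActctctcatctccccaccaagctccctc

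All 10 members matched this table, with 13 start windows. The core was found in 4 of the 10 members (Sst, Vip, Cck and Gad2). Counted by window, 4 of the 13 windows of the members held it, against 17.77% of the 32851 windows of all genes. The share of all genes with the core in any of their windows was not counted, so the count by member has no background here. Sst held the full palindrome TGACGTCA, in which the 2 cores overlap, at position -48 counted from the start, and 1.546% of all windows held it. The core lay at position -79 in Vip, -47 in Cck and -33 in Gad2. The Npy window had no match. These matches are descriptions of letters, not of binding, and their part in the levels of these genes was not tested.

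In untreated hippocampus, all members were detected in every library, with between 16 and 4090 counts per gene and library across the 3 groups. Per kilobase of exon, the control level was highest for Pvalb (122 ± 12.8 CPM per kb, SD, n = 3) and Cck (82.1 ± 11.4), followed by Sst (40.7 ± 5.16) and Gad1 (29.7 ± 2.04). Slc32a1 (25.6 ± 1.84), Gad2 (22.1 ± 1.75) and Npy (13.1 ± 3.58) came next. Vip (3.29 ± 0.520), Lhx6 (3.26 ± 0.328) and Reln (1.74 ± 0.173) were lowest per kb. The control libraries of neighbours in this order overlapped for Slc32a1 with Gad2 and for Vip with Lhx6, and did not overlap for the other neighbours. With the length of the longest protein-coding transcript in place of all exons, Cck moved ahead of Pvalb and Gad1 ahead of Sst. In ONX-0914 replicate 1 the level per kb was 342 for Pvalb and 31.4 for Sst, whereas in ONX-0914 replicate 2 it was 51.7 for Pvalb and 154 for Sst. Thus, the order of these 2 genes was inverted between the 2 libraries of the same group.

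No member was a DEG (FDR under 0.05, edgeR quasi-likelihood test) in any of the 3 comparisons. Of all genes tested, 0.114% were DEGs between ONX-0914 and control, 0.0152% between DMSO and control and 0.0456% between ONX-0914 and DMSO, so the background itself was close to 0. The 3 comparisons share their libraries and are not independent. Between ONX-0914 and control, the Log2FC was positive for 9 members and negative for Lhx6, with a median of 0.68 against 0.05 over all genes. An unadjusted p under 0.05 was reached by 5 of the 10 members there, against 18.6% of all genes. Between DMSO and control, 4 members were positive and 6 negative, with a median Log2FC of -0.14 against -0.00315 over all genes, and an unadjusted p under 0.05 was reached by 0 members and by 2.65% of all genes. Between ONX-0914 and DMSO, 9 were positive, with a median of 0.71 against 0.05 over all genes, and 5 had an unadjusted p under 0.05 against 14.7% of all genes. DESeq2 and limma voom likewise called 0 members in each comparison, with an unadjusted p under 0.05 for 3 and 2 members between ONX-0914 and control, against 7.36% of the 26822 genes with any count and 19.8% of the 13152 genes tested.

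**Figure D1:**
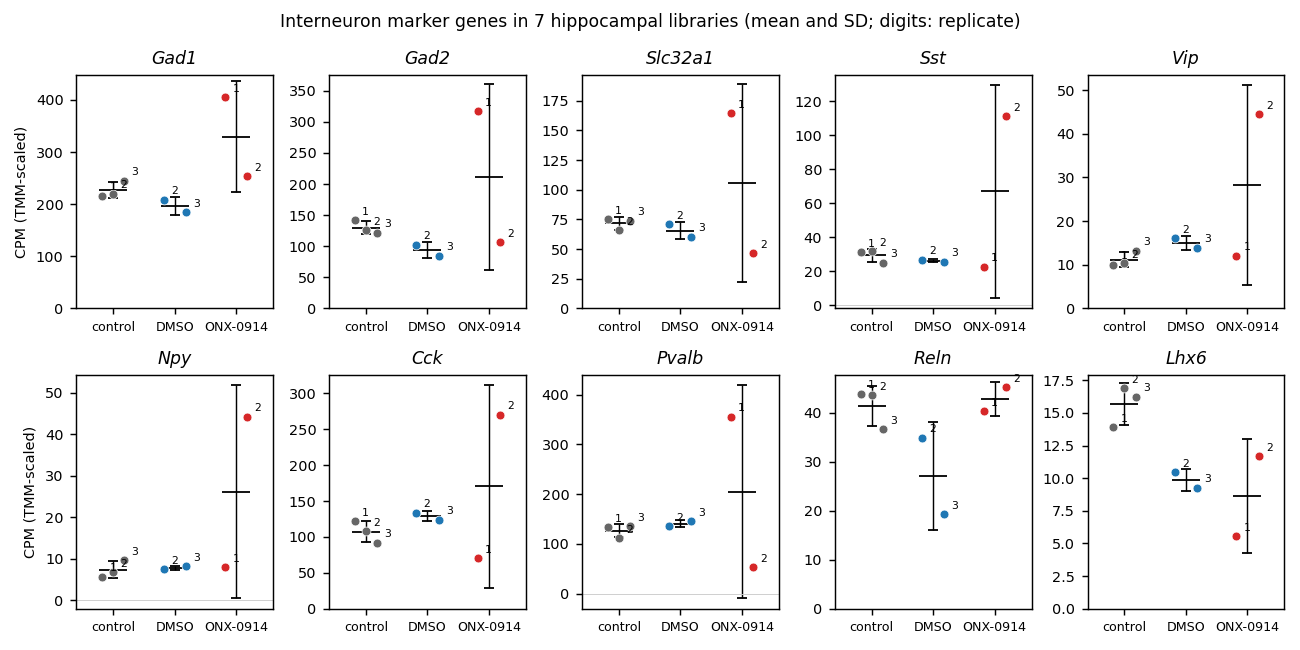
CPM (TMM-scaled, y axis including 0) of each interneuron marker gene by group. Points are libraries with their replicate numbers, and bars show the mean and SD. The red ONX-0914 points lie far apart for 8 genes. Replicate 1 is high for Gad1, Gad2, Slc32a1 and Pvalb, and replicate 2 is high for Sst, Vip, Npy and Cck.

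Of the genes that make and load GABA, Gad1 was measured at 216, 220 and 245 CPM in control, at 209 and 185 CPM in DMSO and at 405 and 254 CPM in ONX-0914 replicates 1 and 2. Both ONX-0914 libraries lay above every control and DMSO library, replicate 2 only narrowly. Its Log2FC against control was 0.53 ± 0.217 (SE, edgeR FDR = 0.243), and against DMSO 0.74 ± 0.242 (FDR = 0.246). Among all genes, 16.9% had both ONX-0914 libraries above every control library, and Gad1 was the only member to do so. Gad2 stood at 142, 126 and 122 CPM in control, at 103 and 84.6 CPM in DMSO and at 317 and 106 CPM in ONX-0914. Replicate 1 was the highest of all 7 libraries, and replicate 2 lay below all control libraries but above both DMSO libraries. The Log2FC of Gad2 was 0.70 ± 0.382 against control (FDR = 0.354) and 1.17 ± 0.431 against DMSO (FDR = 0.284). Slc32a1 reached 75.2, 65.7 and 73.8 CPM in control, 70.8 and 60.3 CPM in DMSO, and 164 and 46.7 CPM in ONX-0914. The 2 ONX-0914 libraries were thus the highest and the lowest of the 7. The share of all genes with such extremes was not counted, here or for the members below. Its Log2FC was 0.55 ± 0.429 against control (FDR = 0.502).

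Pvalb marks fast-spiking basket and axo-axonic cells. It had 133, 112 and 136 CPM in control, 136 and 146 CPM in DMSO and 356 and 53.8 CPM in ONX-0914. Here, too, the ONX-0914 libraries were the extremes on both sides, and the 5 other libraries differed from each other far less. The Log2FC against control was 0.68 ± 0.594 (edgeR FDR = 0.545).

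Somatostatin, the peptide of dendrite-targeting interneurons, is encoded by Sst, which was at 31.0, 31.9 and 25.1 CPM in control and at 26.8 and 25.7 CPM in DMSO. In ONX-0914, Sst was at 22.7 CPM in replicate 1 and at 111 CPM in replicate 2. Replicate 1 was the lowest of all libraries and replicate 2 the highest. The Log2FC of Sst against control was 1.21 ± 0.518 (edgeR FDR = 0.261). Vip, the peptide of interneurons that mostly target other interneurons, was at 9.98, 10.4 and 13.2 CPM in control, at 16.1 and 13.9 CPM in DMSO and at 12.1 and 44.5 CPM in ONX-0914. Only replicate 2 lay outside the range of the other groups. Npy, whose peptide dampens glutamate release, showed 5.70, 6.82 and 9.64 CPM in control, 7.51 and 8.21 CPM in DMSO and 8.05 and 44.2 CPM in ONX-0914. Replicate 1 was thus in the middle of the control range, and replicate 2 was several times higher than any other library. The Log2FC against control was 1.38 ± 0.467 for Vip (FDR = 0.189) and 1.87 ± 0.594 for Npy (FDR = 0.174), the lowest FDR of the members. Without a filter on low counts, Vip (FDR = 0.0339) and Npy (FDR = 0.0140) were called in the same test, in which 578 genes (2.15% of 26822) were DEGs. Cck stood at 122, 108 and 92.0 CPM in control, 134 and 124 CPM in DMSO and 70.5 and 270.28 CPM in ONX-0914. As for Sst, the ONX-0914 libraries were the lowest and the highest of the 7, and the Log2FC was 0.68 ± 0.448 (FDR = 0.430).

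Reln was the most even member between the ONX-0914 libraries, with 40.3 and 45.2 CPM, against 43.9, 43.6 and 36.6 CPM in control and 34.9 and 19.3 CPM in DMSO. The ONX-0914 libraries overlapped with control (Log2FC = 0.05 ± 0.251, edgeR FDR = 0.926) and lay above both DMSO libraries (Log2FC = 0.65 ± 0.282, FDR = 0.337). DMSO replicate 3 was the lowest of all libraries. Lhx6 was at 13.9, 16.9 and 16.2 CPM in control, at 10.5 and 9.28 CPM in DMSO and at 5.54 and 11.7 CPM in ONX-0914. All 4 libraries of injected mice were below all 3 control libraries. The Log2FC of Lhx6 was -0.79 ± 0.324 for ONX-0914 (FDR = 0.245) and -0.67 ± 0.345 for DMSO (FDR = 0.99994), both against control. Both ONX-0914 libraries were below every control library for 16.3% of all genes, and both DMSO libraries for 15%. The share of all genes that met both conditions was not counted.

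**Figure D2:**
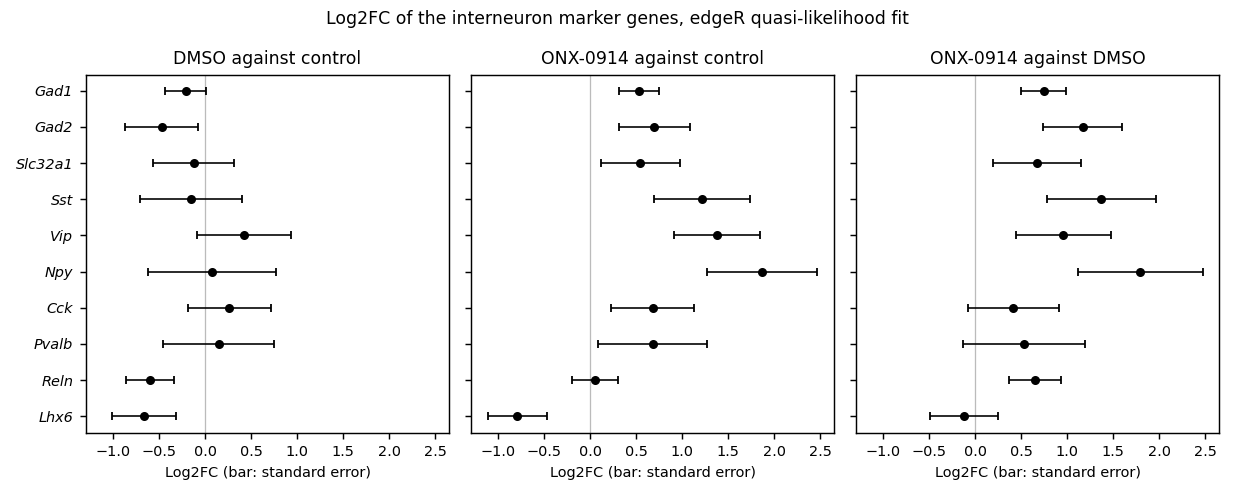
Log2FC (x axis) of each member in the 3 comparisons, from the edgeR quasi-likelihood fit over 7 libraries, with bars of 1 standard error. The errors are widest for Pvalb, Npy and Sst, and against control the Log2FC of ONX-0914 runs from -0.79 (Lhx6) to 1.87 (Npy).

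Both DMSO libraries were below every control library for 4 members (Gad1, Gad2, Reln and Lhx6) and above for 2 (Vip and Cck), against 15% and 15.7% of all genes. The Log2FC of DMSO against control ranged from -0.67 for Lhx6 to 0.42 for Vip, and was -0.60 ± 0.265 for Reln (edgeR FDR = 0.99994 for each of the 10 members). Against DMSO, both ONX-0914 libraries were above for 3 members (Gad1, Gad2 and Reln) and below for 0, where 20.8% and 19.7% of all genes were. The largest Log2FC of that comparison were 1.79 ± 0.681 for Npy (edgeR FDR = 0.291) and 1.37 ± 0.590 for Sst (FDR = 0.335). Vip had 0.96 ± 0.517 (FDR = 0.400), Slc32a1 0.67 ± 0.478 (FDR = 0.505), Pvalb 0.53 ± 0.659 (FDR = 0.696) and Cck 0.41 ± 0.497 (FDR = 0.687). Lhx6 was at -0.13 ± 0.367 (FDR = 0.878).

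The members fell into different sets in the 2 ONX-0914 libraries. ONX-0914 replicate 1 exceeded the highest of the 5 control and DMSO libraries by at least 1.5-fold for 4 members, namely Pvalb (2.44-fold), Gad2 (2.24-fold), Slc32a1 (2.18-fold) and Gad1 (1.65-fold), where 5.73% of all genes did. Only Lhx6 was at least 1.5-fold below the lowest of the 5 (1.68-fold), as were 6.56% of all genes. ONX-0914 replicate 2 exceeded the highest of the 5 by at least 1.5-fold for the 4 neuropeptide genes, Npy (4.59-fold), Sst (3.48-fold), Vip (2.77-fold) and Cck (2.02-fold), where 11% of all genes did. Only Pvalb was below the lowest by that factor (2.08-fold), as were 13.2% of all genes. No member was at least 1.5-fold above the 5 libraries in both, and 1.13% of all genes were.

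Directly between the ONX-0914 libraries, 8 of the 10 members differed at least 2-fold, against 26.7% of all genes. Replicate 2 exceeded replicate 1 in Npy by 5.49-fold (95% exact counting interval 3.85 to 8.09), in Sst by 4.91-fold (3.97 to 6.14), in Cck by 3.84-fold (3.40 to 4.34) and in Vip by 3.69-fold (2.75 to 5.05). Lhx6 was 2.11-fold higher in replicate 2 (1.35 to 3.46). Replicate 1 exceeded replicate 2 in Pvalb by 6.62-fold (6.07 to 7.22), in Slc32a1 by 3.52-fold (3.16 to 3.92), in Gad2 by 2.99-fold (2.78 to 3.22) and in Gad1 by 1.59-fold (1.502 to 1.69). For Reln the ratio of replicate 2 to replicate 1 was 1.12 (0.944 to 1.34). These intervals cover counting error only. Within the control group and within the DMSO group, the largest ratio between libraries was between 1.13 (Gad1) and 1.81 (Reln), and 1.69 for Npy. Hence, the gap between the ONX-0914 libraries was larger than the replicate spread of the other groups for every member except Reln. The share of all genes for which this held was not counted, so it is not shown to be particular to the members.

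**Figure D3:**
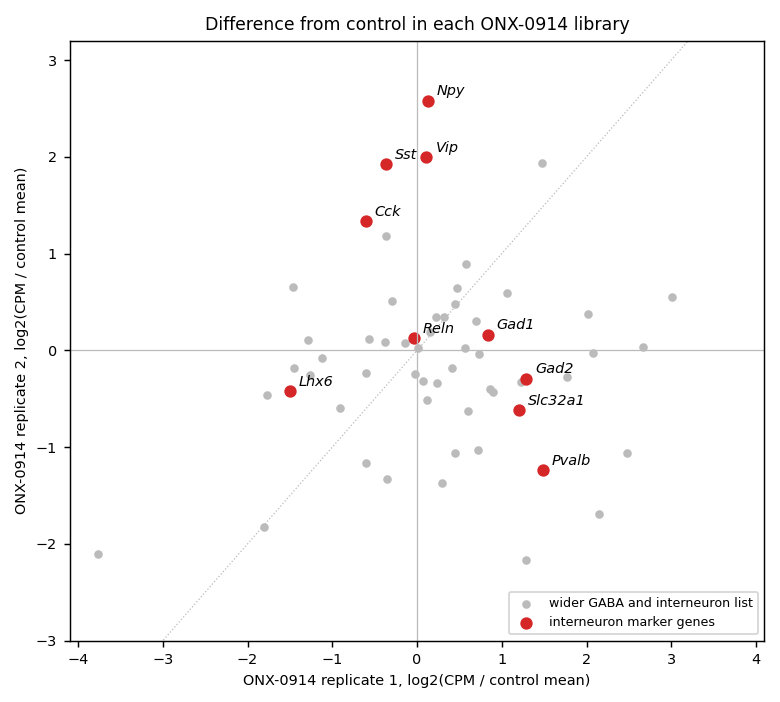
Log2 ratio to the control mean in ONX-0914 replicate 1 (x axis) and replicate 2 (y axis) for the 10 interneuron marker genes (red) and the 49 tested genes of the wider GABA and interneuron list (grey). The dotted line marks equal values. Npy, Vip, Sst and Cck sit high on the y axis near or left of 0 on the x axis, while Pvalb, Slc32a1 and Gad2 sit to the right and below 0.

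The mean of the ONX-0914 group therefore rested on different libraries for different members. In a fit without ONX-0914 replicate 2, 6 members were called against control, as were 19% of 13635 genes. Gad1 (Log2FC = 0.83), Gad2 (1.29), Slc32a1 (1.20) and Pvalb (1.48) were higher, and Cck (-0.60) and Lhx6 (-1.51) were lower. In a fit without ONX-0914 replicate 1, 6 of the 10 members were also called, near the 51.2% of 13713 genes called there, so that this count says nothing particular about the members. In this fit, Sst (1.92), Vip (1.97), Npy (2.54) and Cck (1.33) were higher, and Slc32a1 (-0.62) and Pvalb (-1.25) were lower. Slc32a1, Cck and Pvalb had opposite signs in the 2 fits. Against the control mean, 6 of the 10 members had opposite signs in the 2 ONX-0914 libraries, as did 44.6% of all genes. The lone ONX-0914 library was assumed in these fits to vary like the other groups, so each compares 1 library, not a treatment, with control. Over all genes, 2594 and 7023 DEGs were called without replicate 2 and without replicate 1, against 15 with both libraries.

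Sums and ratios within a library showed the same split. Gad1, Gad2 and Slc32a1 together made 412 to 441 CPM in control, 329 to 382 CPM in DMSO, and 886 and 407 CPM in ONX-0914 replicates 1 and 2. The 4 neuropeptide genes summed to 140 to 168 CPM in control, 172 to 184 CPM in DMSO, and 113 and 470.181 CPM in ONX-0914. The sum of the neuropeptide genes over that of the GABA genes was 0.317 to 0.388 in control and 0.481 to 0.521 in DMSO. It was 0.128 in ONX-0914 replicate 1 and 1.16 in replicate 2, so that the 2 libraries lay outside the other 5 on either side. The ratio of Sst to Pvalb was 0.176 to 0.285 in the 5 other libraries, 0.0636 in ONX-0914 replicate 1 and 2.07 in replicate 2. Lhx6 over the summed GABA genes was 0.0274 to 0.0410 in the 5 other libraries, 0.00625 in ONX-0914 replicate 1 and 0.0288 in replicate 2. The ratio of Gad1 to Gad2 was 1.53 to 2.01 in control, 2.03 to 2.18 in DMSO and 1.28 and 2.40 in ONX-0914.

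Markers of other regions moved with these values in ONX-0914 replicate 1. Where the GABA genes and Pvalb were high, the striatal markers Ppp1r1b (740 CPM against 125 to 151 in control) and Penk (172 CPM against 18.8 to 26.0) and the thalamic markers Prkcd (315 CPM against 36.0 to 40.1) and Rora (280 CPM against 41.4 to 42.7) were high as well. Of the 3 cholinergic markers, all were above control, at 6.04 CPM in sum against 0 to 0.713. These values are near the floor, with 8 (Chat), 13 (Slc5a7) and 3 (Slc18a3) counts in ONX-0914 replicate 1. The hypothalamic list summed to 28.9 CPM against 4.64 to 7.49 in control, with 6 of 9 genes above. Genes of excitatory neurons summed to 3229 CPM against 10113 to 11351 in control, with 9 of 10 below. The oligodendrocyte list was at 9203 CPM against 4600 to 6995 in control, with 5 of 5 above. For these lists, the share of all genes above or below every control library in this library alone was not counted. The part of these other regions in the values of Gad1, Gad2, Slc32a1 and Pvalb was not tested.

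In ONX-0914 replicate 2, where the neuropeptide genes were high, the lists were read in the same way. Here, too, the share of all genes above or below every control library was not counted. The striatal list summed to 223 CPM against 246 to 280 in control, with 5 of its 14 genes above every control library and 2 below, among them Ppp1r1b (52.9 CPM against 125 to 151). The excitatory list summed to 9105 CPM, with 5 of 10 genes above and 5 below. The list of thalamus and midbrain summed to 169 CPM, within the control range, with 6 of 14 genes above and 5 below. The neocortical list was at 348 CPM, within a wide control range of 234 to 395 CPM, with 5 of 8 genes above every control library and 1 below. The oligodendrocyte list summed to 4010 CPM against 4600 to 6995 in control, with 3 of 5 genes below and 0 above. Astrocyte markers summed to 4328 CPM against 4716 to 5109 in control, with 1 of 5 genes above and 3 below. They summed to 3886 CPM in ONX-0914 replicate 1, with 2 above and 2 below. Choroid plexus markers summed to 179 CPM against 36.1 to 179 in control. Microglial markers summed to 274 CPM against 205 to 210 in control, but were split, with 2 of 5 genes above and 2 below. Csf1r was at 117 CPM against 46.7 to 53.1, whereas Cx3cr1 (72.7 CPM against 84.0 to 88.1) and Tmem119 (37.2 CPM against 45.7 to 48.0) were below. For this list the DMSO libraries were above control as well, at 245 and 262 CPM with 4 and 5 of 5 genes above. The 6 markers of Cajal-Retzius cells, which hold Reln, summed to 70.6 CPM against 76.3 to 102 in control. Genes with up to 1000 bases of exon had a median log2 difference from the control mean of -0.61 in this library, against medians of at most 0.04 in size for longer genes. Sst (721 bases) and Npy (566 bases) are of that short class, and Vip (3402 bases) and Cck (1305 bases) are longer. All of these neuropeptide genes were above every control library in this library. The part of the mitochondrial share, of gene length or of other cell types in the neuropeptide values was not tested.

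**Figure D4:**
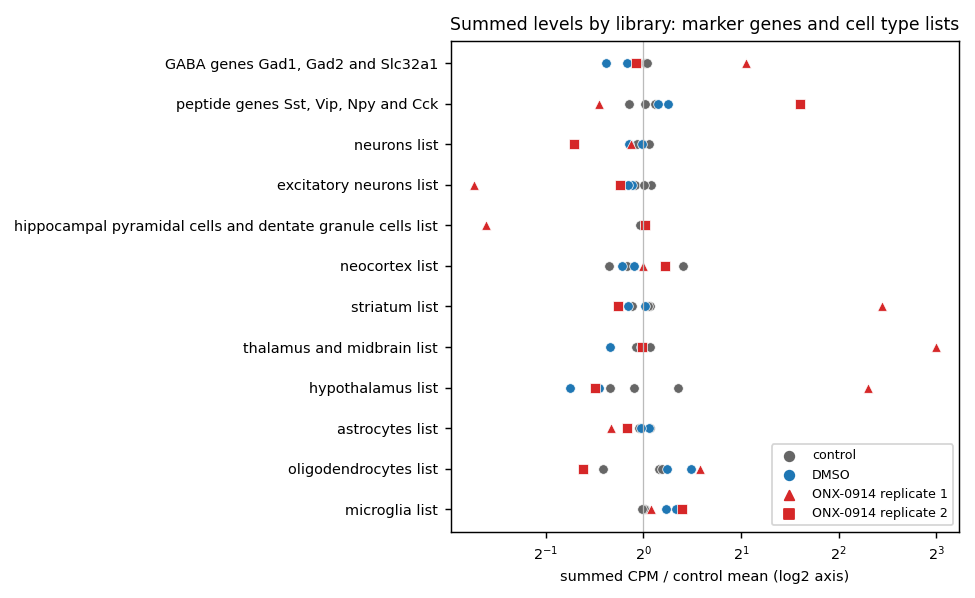
Summed CPM of the GABA genes, of the neuropeptide genes and of 10 cell type and region lists, as a ratio to the control mean (x axis, log2 scale), with 1 symbol per library. ONX-0914 replicate 1 (triangles) is apart in the GABA genes, in the striatal, thalamic and hypothalamic lists and, downwards, in the lists of excitatory and hippocampal cells. ONX-0914 replicate 2 (squares) is apart in the neuropeptide genes. It is lowest in the neuronal, oligodendrocyte and striatal lists and highest in the microglial list.

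A wider list of 53 genes of GABA handling and interneuron identity was read in the same fit, of which 49 were tested. Cort, Htr3a, Lhx8 and Nkx2-1 had too few counts. None of the 49 was a DEG in any comparison. By DESeq2, 5 were called between ONX-0914 and control, against 1.33% of the 26822 genes with any count. Between ONX-0914 and DMSO, DESeq2 called 2, against 0.854% of those genes. Against control, ONX-0914 gave 28 positive and 21 negative Log2FC with a median of 0.14, against 0.05 over all genes. Of the 49, 12 (24.5%) had an unadjusted p under 0.05 there, against 18.6% of all genes. Both ONX-0914 libraries were above every control library for 9 of the 49 (18.4%) and below for 7 (14.3%), close to the background of 16.9% and 16.3%. Between the 2 ONX-0914 libraries, 23 of the 49 (46.9%) differed at least 2-fold, against 26.7% of all genes. DMSO against control gave 8 positive and 41 negative values with a median of -0.21. Over all 13152 genes tested, 6641 were negative, with a median of -0.00315. An unadjusted p under 0.05 was reached there by 2 of the 49 (4.08%), against 2.65% of all genes.

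Of the 7 genes of GABA uptake, breakdown and supply, the largest Log2FC belonged to a GABA transporter. Slc6a11, which encodes the mainly astrocytic GAT3, was at 92.0 to 105 CPM in control, 93.2 to 105 CPM in DMSO and 407 and 130 CPM in ONX-0914 (Log2FC = 1.41, edgeR FDR = 0.144). Both ONX-0914 libraries were above the 5 others. Of all genes, 16.9% had both above every control library and 20.8% had both above every DMSO library. The share above all 5 was not counted. Abat, which breaks GABA down, was at 281 to 302 CPM in control and at 528 and 219 CPM in ONX-0914 (Log2FC = 0.36, FDR = 0.558), the highest value again in replicate 1.

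Of the 13 tested transcription factors and regulators, Nr2f2 was at 12.4 to 22.1 CPM in control and at 101 and 8.66 CPM in ONX-0914 (Log2FC = 1.56, edgeR FDR = 0.319). Dlx6 was at 2.85 to 4.68 CPM in control and at 14.8 and 3.44 CPM in ONX-0914 (Log2FC = 1.21, FDR = 0.342). Both were high in replicate 1 alone. Dlx1, which specifies forebrain GABA neurons, was at 26.7 to 36.5 CPM in control, 19.0 to 23.6 CPM in DMSO and 16.1 and 20.1 CPM in ONX-0914 (Log2FC = -0.73, FDR = 0.175). As for Lhx6, all libraries of injected mice were below control. Of all genes, 16.3% had both ONX-0914 libraries below every control library and 15% had both DMSO libraries below. The share that met both conditions was not counted.

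Among the 29 other interneuron markers tested, the largest Log2FC belonged to Chrna2, Penk and Slc17a8. Chrna2, a nicotinic receptor subunit of oriens interneurons, was at 2.85 to 4.41 CPM in control, 4.02 to 4.998 CPM in DMSO and 0.252 and 0.793 CPM (1 and 12 counts) in ONX-0914 (Log2FC = -2.36, edgeR FDR = 0.108). Slc17a8, the vesicular glutamate transporter of a subset of Cck interneurons, was at 6.06 to 9.27 CPM in control, 6.17 to 6.43 CPM in DMSO and 2.27 and 2.25 CPM in ONX-0914 (Log2FC = -1.82, FDR = 0.0742). The study had already singled out both genes in these libraries, so their direction is not independent evidence. Both ONX-0914 libraries were below the 5 others for both genes. Of all genes, 16.3% had both ONX-0914 libraries below every control library and 19.7% below every DMSO library. The share below all 5 was not counted. Penk, which is on the striatal list too, had 31.3 CPM in ONX-0914 replicate 2 and a Log2FC of 2.23 (FDR = 0.133).

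The genes whose pattern over the 7 libraries was most like that of a member were sought among all tested genes by the root mean square difference of centred log2 CPM. For Npy, which spanned 2.87 log2 units, they were Atat1 (0.26), Hcfc1r1 (0.29) and Lipe (0.29). For Sst, spanning 2.28, they were Sept5 (0.17), Cx3cl1 (0.18) and Pld3 (0.18), and for Cck, spanning 1.93, P2ry12 (0.08), Slc2a6 (0.11) and Rasd1 (0.12). For Vip they were Mpv17 (0.12), Rpl7 (0.16) and Rps13 (0.17). For Pvalb, spanning 2.72, they were Gap43 (0.14), Rnd2 (0.17) and Tpm2 (0.21), and for Gad2, spanning 1.90, Ucp3 (0.13), Hebp2 (0.14) and Adcy5 (0.15). Only genes outside the 10 were sought, and the likeness rests mainly on the ONX-0914 libraries.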

How the data were processed

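Hippocampal RNA-seq data of 7 libraries were used, grouped by the labels. The authors deposited raw counts of reads per gene, 1 file per library, made from single-end reads of a directional kit. The submitters' processing notes name Trimmomatic 0.39, STAR 2.7.3a, featureCounts 2.00 and the build GRCm39. The annotation release and the strand setting are not given in the sources used here, so reads of genes that overlap a member on the other strand cannot be told apart. Symbols and exon lengths came from GENCODE M21, in which 52083 of the 55416 identifiers (99.821% of counts) were found. Unassigned reads (8.57% to 10.4%) stayed out.

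The tests were run in edgeR 4.0.16 under R 4.3.3 (filterByExpr, TMM, glmQLFit with legacy set to FALSE, glmQLFTest, Benjamini–Hochberg adjustment over 13152 genes, threshold 0.05, prior count 0.125), with 1 mean per group over all 7 libraries. Standard errors come from the F statistics. The steps were run on simulated counts in which all libraries had the same spread and both ONX-0914 libraries the same shift. That simulation does not cover the disagreement between the ONX-0914 libraries. CPM used TMM-scaled totals. Intervals of ratios between 2 libraries are exact binomial ones at 95%. Alternatives were DESeq2 1.42.0, limma 3.58.1 (voom) and other scalings, filters and sets of libraries.

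All 10 members are named, as are the 3 genes with the largest absolute Log2FC of ONX-0914 against control in each of 3 roles of the wider list. For likeness (prior count 2), 3 genes were sought per member, and only those of Gad2, Sst, Vip, Npy, Cck and Pvalb are named. Of the marker lists, genes were named among the 3 of highest mean CPM. The result of 1 gene that this rule names in the wider list is not reported here. The members and lists were chosen with earlier results of these data known.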

Additional observations from a re-analysis of the deposited data

How the results depend on the processing

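With 2 libraries per treated group, which disagreed under ONX-0914, and with at most 3877006 counts in 6 of the 7, modest differences in single members could not be resolved. Of 510 Log2FC of members recomputed under an alternative, 470 kept their direction and side of the threshold, 27 passed the threshold (6 of them with the other sign) and 13 turned in sign without passing it, and the cause was not tested unless stated.

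Without a filter on low counts, 2 members (Vip and Npy) were called between ONX-0914 and control, 5 genes of the wider list were called there and 4 between ONX-0914 and DMSO. DESeq2 called 5 and 2 of the wider list. Over all genes, DEGs of ONX-0914 against control, of DMSO against control and of ONX-0914 against DMSO numbered 15, 2 and 6, against 578, 11 and 297 without the filter, 358, 5 and 229 by DESeq2, and 3, 141 and 0 with the compared groups alone. With at least 10 counts in every library they numbered 11, 0 and 10, by limma voom 18, 0 and 6, by RLE size factors 20, 2 and 11, and with total counts 14, 2 and 3 (an unadjusted p under 0.05 was reached by 290 and 300 genes where the count was 0 between DMSO and control, and by 821 where it was 0 between ONX-0914 and DMSO). Total counts without further scaling shifted the median Log2FC of all genes to 0.19 (ONX-0914 against control) and 0.18 (against DMSO), and Lhx6 of ONX-0914 against DMSO to 0.0255.

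Leaving out each library in turn called between 0 and 6 members between ONX-0914 and control, 0 to 8 between ONX-0914 and DMSO, and 0 to 28 and 0 to 26 genes of the wider list. Calls came only from the fits without an ONX-0914 library. Without ONX-0914 replicate 1, 6 and 8 members and 24 and 23 wider genes were called (51.2% and 46% of all genes), and without replicate 2, 6 and 5 members and 28 and 26 wider genes (19% and 17% of all genes). The Log2FC of ONX-0914 against control then ran from -0.30 to 1.29 for Gad2, -0.62 to 1.20 for Slc32a1, -0.37 to 1.92 for Sst, -0.60 to 1.33 for Cck, -1.25 to 1.48 for Pvalb and -0.0381 to 0.122 for Reln. Against DMSO it ran from -0.51 to 1.31 for Slc32a1, -0.22 to 2.07 for Sst, -0.33 to 1.55 for Vip, -0.88 to 1.06 for Cck, -1.40 to 1.33 for Pvalb and -0.84 to 0.22 for Lhx6. For DMSO against control, Npy ran from -0.0689 to 0.318.

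Deviations of same-numbered libraries from their group means correlated at -0.0963 to 0.064, and each comparison shares at most 2 numbers. In a group of 2 libraries these deviations mirror each other, so the correlations cannot decide whether the replicate numbers pair the libraries. With the replicate block, 0 members were called in each comparison (an unadjusted p under 0.05 for 3, 2 and 2, against 13.6%, 2.14% and 12.5% of all genes), and 1, 0 and 0 DEGs over all genes. Under the block, Reln of ONX-0914 against control was -0.11, Slc32a1 and Npy of DMSO against control 0.13 and -0.35, and Pvalb of ONX-0914 against DMSO -0.37.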
